A study of Homo sapiens with 12 samples.

Results

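The oligoadenylate synthetase genes OAS1, OAS2 and OAS3, their relative OASL and the exonuclease gene ISG20 were described across 3 human cancer cell lines. These 5 genes were taken by symbol from a table of 20545 gene symbols, and each of the 5 had a value on all 12 arrays. HCT116 is a colon carcinoma line, HL60 a promyelocytic leukaemia line and SNU398 a hepatocellular carcinoma line. In each line, 2 samples were labelled 5-Aza-CdR, the DNA methyltransferase inhibitor decitabine, and 2 were labelled Combination, a treatment whose other component is not named in the labels. No untreated sample was analysed here. Every treatment difference is therefore a log2 level with the combination minus the log2 level with 5-Aza-CdR. Separate cultures are not stated for the 2 replicates of a group, and p-values then measure only how far these samples spread, which may be technical.

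Oligoadenylate synthetases are interferon-induced enzymes that sense double-stranded RNA and answer it by making short oligoadenylates with an unusual linkage. These oligoadenylates act as a second messenger that leads to the cutting of viral and cellular RNA. OAS1, OAS2 and OAS3 make oligoadenylates, whereas human OASL has lost that enzyme activity and acts in RNA sensing through RIG-I. ISG20 is an interferon-induced exonuclease that degrades single-stranded RNA. The synthetase genes are classical targets of the interferon-activated transcription factor complex that holds STAT2 and IRF9 and binds a DNA element built of repeated GAAA blocks.

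Promoters of OAS1, OAS3 and ISG20 were matched by symbol in a RefSeq table (GRCh38.p14), 3 of the 5 genes. OAS2 and OASL had no entry there, so OASL, a member with larger treatment differences in HCT116, is not shown. OAS1 had larger treatment differences in HCT116 only and ISG20 in HCT116 and HL60. Both can be read beside OAS3, whose differences were small. A link between promoter matches and treatment differences was not tested. Each line gives the 250 bases before the annotated start on the plus strand, and capitals mark matches to GAAANNGAAA or GAAANGAAA, searched on both strands.
OAS1 (chr12:112906712-112906961): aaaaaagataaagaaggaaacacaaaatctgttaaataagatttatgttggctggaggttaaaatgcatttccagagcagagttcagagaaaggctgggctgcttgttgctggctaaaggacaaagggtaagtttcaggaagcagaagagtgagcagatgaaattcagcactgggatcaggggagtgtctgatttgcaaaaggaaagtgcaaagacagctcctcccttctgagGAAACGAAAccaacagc
OAS3 (chr12:112938224-112938473): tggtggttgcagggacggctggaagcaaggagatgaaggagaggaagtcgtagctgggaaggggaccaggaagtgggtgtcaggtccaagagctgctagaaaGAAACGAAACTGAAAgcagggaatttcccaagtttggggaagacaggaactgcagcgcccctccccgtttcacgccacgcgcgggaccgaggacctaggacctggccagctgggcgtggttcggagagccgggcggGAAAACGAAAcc
ISG20 (chr15:88638766-88639015): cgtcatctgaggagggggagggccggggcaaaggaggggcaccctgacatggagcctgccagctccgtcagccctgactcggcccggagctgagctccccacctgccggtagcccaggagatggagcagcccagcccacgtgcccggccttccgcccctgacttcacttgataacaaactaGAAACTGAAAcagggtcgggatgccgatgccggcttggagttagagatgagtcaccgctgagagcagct
The OAS1 promoter held 1 match, the OAS3 promoter 3 matches, of which an overlapping pair shares a GAAA block, and the ISG20 promoter 1 match. All of these matches were on the plus strand. GAAANNGAAA or its reverse complement stood in 3.02% of 35116 promoter windows of the same length, GAAANGAAA in 2.69%, and either in 5.48%. In the RefSeq gene order OAS1, OAS3 and OAS2 follow each other directly on chromosome 12, OASL lies elsewhere on that chromosome and ISG20 lies on chromosome 15 next to AEN.

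The arrays of a line differed by replicate number. The median log2 of ribosomal protein genes, among the most abundant transcripts of a cell, was 13.9 and 14.0 on the HCT116 replicate 1 arrays but 11.4 and 11.7 on the replicate 2 arrays, and the replicate 2 arrays list 4938 genes at exactly 0, read here as not measured. In HL60 replicate 2 this median was 12.5 with 5-Aza-CdR and 13.7 with the combination. In SNU398 the median lay between 14.4 and 14.5 on all arrays. Differences are given within pairs of arrays with the same number. Of the line markers, KRT19, an epithelial keratin, was at least 11.24 in HCT116, and MPO, the granulocyte peroxidase, was at least 14.94 in HL60. ALB, the hepatocyte albumin gene, was at most 8.27 in SNU398, below its HL60 arrays, so it does not set SNU398 apart. GPC3, a fetal liver glypican, was at least 9.38 in SNU398 and at most 7.92 in the other lines, with values on 2 HCT116 arrays. Not every listed marker set its line apart. SERPINA1 was at most 7.76 in SNU398 but at least 10.84 in HL60, and APOA1 and APOA2 were at most 7.92 and 7.98 in SNU398. Of the colon markers, CDX2 was 9.16 to 9.54 in SNU398 and 8.48 to 8.60 in HCT116. EPCAM was 10.90 to 11.47 in SNU398 and 8.16 to 12.16 in HCT116. Bulk RNA cannot tell fewer cells of a kind from less RNA per cell.

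In HCT116 cells OAS1 and OASL were each more than 2-fold higher in the combination array of both pairs, and ISG20 was higher by a smaller amount in both, whereas OAS2 and OAS3 were not higher in both. OAS1 stood at 8.97 with 5-Aza-CdR and 10.58 with the combination on the replicate 1 arrays, and at 7.02 and 8.14 on the replicate 2 arrays. The combination array was the higher one within each pair, but the groups overlapped because both replicate 2 arrays lay below the replicate 1 array of 5-Aza-CdR. The pair differences of 1.61 and 1.12 correspond to 3.05-fold and 2.17-fold, and the first was the highest of the 17281 genes measured in that pair. OASL stood at 8.93 and 9.97 on the replicate 1 arrays and at 7.39 and 8.53 on the replicate 2 arrays, with pair differences of 1.04 and 1.13. The OASL groups overlapped in the same way. OAS1 and OASL were 2 of the 13 genes (0.105% of 12349) with a difference of at least 1 in both pairs, and with ISG20 they were 3 of the genes (0.737%) with at least 0.5 in both.

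**Figure D1:**
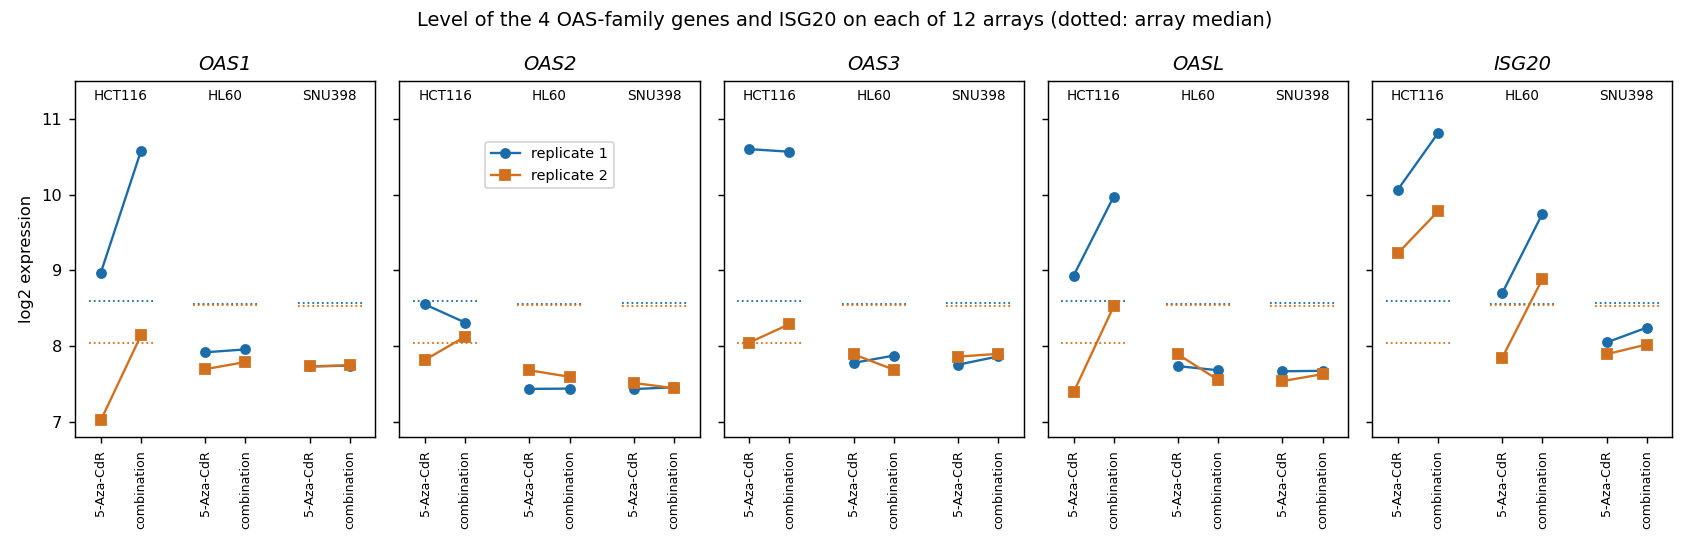
Log2 expression of OAS1, OAS2, OAS3, OASL and ISG20 (1 panel each) on the 12 arrays, with the 2 arrays of a pair joined by a line and replicate 1 in blue circles and replicate 2 in orange squares. Dotted lines give the mean of the array medians of each pair. OAS1 and OASL climb within both HCT116 pairs, ISG20 climbs within both pairs of HCT116 and of HL60, and the 4 OAS-family genes stay below the median in HL60 and SNU398.

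ISG20 had the highest minimum of the members in HCT116, at 10.07 and 10.81 on the replicate 1 arrays and 9.23 and 9.78 on the replicate 2 arrays. Its pair differences were 0.75 and 0.55. OAS3, the longest synthetase with repeated synthetase units, stood at 10.60 and 10.57 on the replicate 1 arrays and 8.05 and 8.29 on the replicate 2 arrays. OAS3 therefore showed no rise in the pair with the stronger signal, with pair differences of -0.03 and 0.24. OAS2, which lies next to OAS3 in the genome, stood at 8.55 and 8.31 on the replicate 1 arrays and 7.82 and 8.13 on the replicate 2 arrays. Its pair differences of -0.24 and 0.31 pointed in opposite directions. The median pair difference over all genes was -0.00 in pair 1 and 0.07 in pair 2, and that of ribosomal protein genes 0.05 and 0.31, so the positive values of OAS2 and OAS3 in pair 2 were about the size of the ribosomal shift or smaller. The part of that shift in the pair 2 values was not tested. Of 5 measured colon epithelial markers, 5 had a mean difference above 0 in HCT116, as had 54.2% of genes (marker median 0.40, 0 called in the fit to the pairs of this line). For CDX2 (0.01) and KRT8 (0.05, from pairs of -0.58 and 0.68) that mean was very small. The part of these markers in the members' differences was not tested either. Both combination arrays lay above both 5-Aza-CdR arrays for 0 of the 5 members in HCT116, as for 0.850% of genes.

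Whether the HCT116 differences of OAS1 and OASL were called depended on how the replicates were handled. In the unpaired fit, limma on the 6 group means over all arrays, OAS1 differed by 1.36 ± 0.81 (SE, n = 2 arrays per group) and OASL by 1.09 ± 0.56, each with an adjusted p of 1.00, and 0% of 12349 genes were called higher (18 were at an unadjusted p under 0.05 in either direction). With the replicate number as a block in a fit to all 6 pairs, limma gave adjusted p = 0.102 for OAS1, 0.119 for OASL and 0.456 for ISG20, again with 0% called. In limma fitted to the pairs of HCT116 alone, OAS1 (1.36 ± 0.22 SE, n = 2 pairs, adjusted p = 0.000876) and OASL (1.09 ± 0.22, adjusted p = 0.0113) were called higher, 2 of the 5 members against a background of 0.170% of genes called higher and 0.0324% lower. ISG20 (0.65 ± 0.22) was not called in that fit, with an adjusted p of 0.351 in limma. With 1 residual degree of freedom, limma's SE in that fit rests mostly on a spread shared over genes. It was 0.22 for OAS1, OASL, ISG20 and IFIH1 alike, so these calls follow the size of the difference more than each gene's own spread. OAS2 was 0.03 with a 95% interval of -0.42 to 0.48, and OAS3 0.10 with an interval of -0.34 to 0.55. After quantile normalization the fit to the pairs of HCT116 called neither OAS1 (adjusted p = 0.116 in limma) nor OASL (adjusted p = 0.129), with differences of 1.58 and 1.33. The members' median in HCT116 was 0.65 against 0.03 for all genes, and 3 of the 5 were higher in both pairs, as were 30.0% of genes, while none was lower in both, as were 26.4%.

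**Figure D2:**
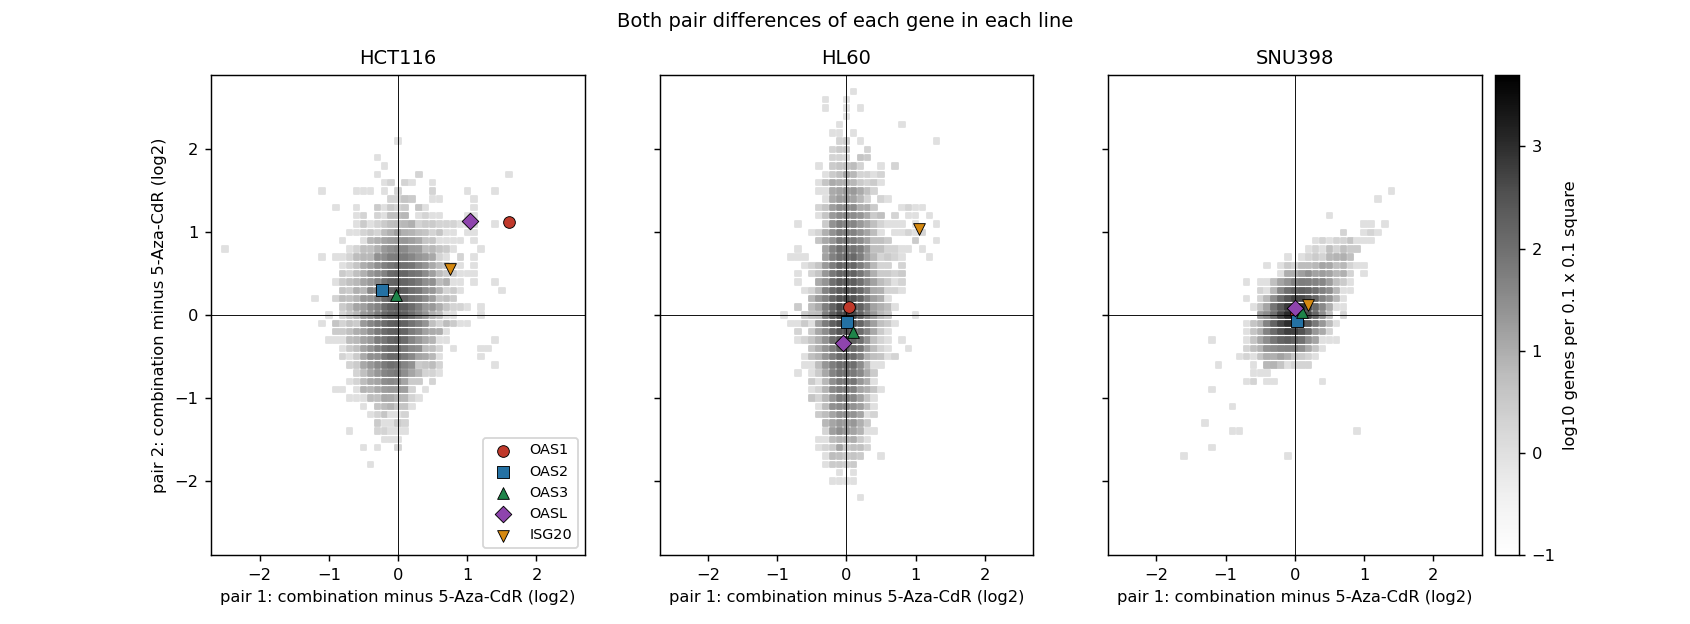
Pair difference (combination minus 5-Aza-CdR, log2) in pair 1 on the horizontal axis and in pair 2 on the vertical axis, for all genes as grey squares shaded by the log10 number of genes and for the 5 members as coloured symbols. In HCT116 OAS1 (1.61, 1.12) and OASL (1.04, 1.13) lie at the upper right edge of the genes, in HL60 only ISG20 (1.05, 1.04) of the 5 does, and in SNU398 all 5 lie near the origin.

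In HL60 cells ISG20 alone among the 5 genes was higher with the combination by a sizeable amount, about 2-fold in each pair. ISG20 stood at 8.70 with 5-Aza-CdR and 9.75 with the combination on the replicate 1 arrays, and at 7.85 and 8.89 on the replicate 2 arrays. Both combination arrays lay above both 5-Aza-CdR arrays, as for 8.37% of HL60 genes, and the pair differences were 1.05 and 1.04. A difference of at least 1 in both pairs was found for 0.0361% of HL60 genes, and of at least 0.5 for 0.376%. The pair 1 difference was the 10th highest of 19402 genes, but the pair 2 difference ranked 934th, in a pair where the spread over genes (SD 0.552) was wider than in pair 1 (SD 0.158). The ribosomal protein genes had a median difference of 0.67 in that pair 2 and 0.06 in pair 1, beside ISG20 differences of 1.04 and 1.05, and the part of this shift in the ISG20 values was not tested. No fit called ISG20 in HL60: the limma values were 1.04 ± 0.49 SE unpaired (adjusted p = 1.00), adjusted p = 0.392 over all pairs and 0.895 in the pairs of HL60 alone (n = 2 pairs). Each of these fits called 0% of HL60 genes higher, with 26, 1417 and 184 genes at an unadjusted p under 0.05 in either direction. After quantile normalization the ISG20 difference in HL60 was smaller, at 0.79, unpaired or in the pairs of HL60, and was not called either.

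The 4 OAS-family genes of HL60 lay between 7.44 and 7.96 on every array, between the 1.53 and 35.3 percentiles of their arrays, whose medians were 8.48 to 8.62. OAS1 stood at 7.92 and 7.96 in pair 1 and 7.70 and 7.79 in pair 2. OASL was the 1 member lower in both pairs, at 7.74 and 7.68 in pair 1 and 7.89 and 7.56 in pair 2, with differences of -0.05 and -0.34. In the limma fit to the pairs of HL60 the OASL difference was -0.20 ± 0.19 (SE, n = 2 pairs, adjusted p = 0.896). OAS2 (0.00 and -0.09) and OAS3 (0.10 and -0.20) did not keep a sign above 0 in both pairs. In HL60 2 of the 5 members, OAS1 and ISG20, were higher in both pairs, as were 28.0% of genes, and 1 was lower in both, as were 23.8%. No detection p could be tied to these samples, so whether these low values stand above the arrays' background was not tested.

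**Figure D3:**
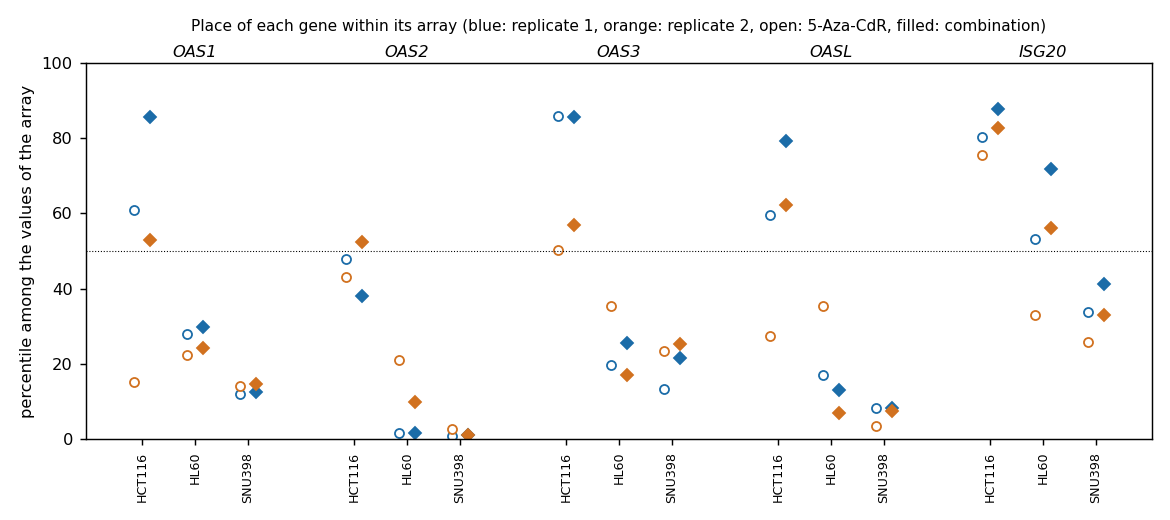
Percentile of each member's value among all values above 0 of the same array, by line, with replicate 1 in blue and replicate 2 in orange, 5-Aza-CdR as open circles and the combination as filled diamonds. In HL60 and SNU398 the 4 OAS-family genes lie at or below the 35.3 percentile on every array, whereas in HCT116 OAS3 and ISG20 lie above the middle on each array.

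In SNU398 cells none of the 5 genes differed between treatments by more than 0.20 in either pair. ISG20 stood at 8.05 and 8.25 on the replicate 1 arrays and 7.90 and 8.02 on the replicate 2 arrays, with pair differences of 0.20 and 0.13. OAS1 stood at 7.73 and 7.74 in pair 1 and at 7.74 and 7.75 in pair 2, a difference of 0.01 in each. The OAS-family genes lay between 7.43 and 7.90, at most at the 25.4 percentile of their arrays. In the limma fit to the pairs of SNU398 the 95% intervals were -0.16 to 0.18 for OAS1, -0.20 to 0.15 for OAS2, -0.10 to 0.25 for OAS3, -0.13 to 0.22 for OASL and -0.01 to 0.34 for ISG20. None of the 5 was called there (adjusted p from 0.344 to 0.969 in limma), against 2.43% of SNU398 genes called higher and 1.23% lower. For 2 members, OAS1 and OAS3, both combination arrays lay above both 5-Aza-CdR arrays, as for 12.6% of SNU398 genes. In SNU398 4 of the 5 members were higher in both pairs, as were 29.6% of genes, and 0 were lower in both, as were 30.7%. A difference of at least 1 in both pairs was found for 0.0361% of SNU398 genes and of at least 0.5 for 0.531%, with 0 members among them.

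By group mean, HCT116 was the highest line under both treatments for all 5 genes, but this did not hold on every array. The HCT116 replicate 2 array of 5-Aza-CdR stood at 7.02 for OAS1 and 7.39 for OASL. These values lay below every HL60 and SNU398 array, whose lowest values were 7.70 for OAS1 and 7.54 for OASL. With 5-Aza-CdR the top mean of OAS1 and OASL therefore rests on the HCT116 replicate 1 array. With 5-Aza-CdR the group means of OAS3 (SD, n = 2) were 9.33 ± 1.80 in HCT116, 7.84 ± 0.08 in HL60 and 7.81 ± 0.08 in SNU398. ISG20 followed the order HCT116 (9.65 ± 0.59), HL60 (8.27 ± 0.60) and SNU398 (7.97 ± 0.11). HCT116 is set beside the other lines as a description only, because its rows cover another set of symbols and may come from another array design. Between HL60 and SNU398, neighbours in this order, limma called none of the 5 levels: the differences ran from -0.04 for OAS3 to 0.74 for ISG20 (adjusted p = 0.202 for ISG20 in limma, with 14.2% of genes called). With the replicate pairs as a random effect ISG20 had an adjusted p of 0.496 in limma, and 4.74% of genes were called. After quantile normalization the unpaired fit, which leaves the replicate pairs out, called the ISG20 level (0.79, adjusted p = 0.0447 in limma). That fit called 2559 of 12349 genes.

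Whether the treatment difference itself differed between lines was tested too. In the fit to all pairs, OAS1 was 1.35 higher in HCT116 than in SNU398 (95% interval 0.85 to 1.85) and OASL 1.04 higher (0.61 to 1.47). ISG20 was 0.88 higher in HL60 than in SNU398 (0.48 to 1.28), and its HCT116 and HL60 values differed by -0.39 (-0.79 to 0.01). These intervals are not adjusted for the number of genes. Adjusted over all genes, limma's F test of the lines called none of the 5 with all pairs (adjusted p = 0.862 for OAS1, OASL and ISG20) or in the unpaired fit (adjusted p = 1.00), each with 0% of genes called (399 and 0 at an unadjusted p under 0.05). Averaged over the 3 lines, ISG20 was 0.62 higher with the combination, OAS1 0.48 and OASL 0.31, with limma adjusted p of 0.143, 0.356 and 0.497 in the fit to all pairs, where 0.00810% of genes were called higher, and 1.00 in the unpaired fit.

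Of 3 genes listed under oligoadenylate handling, PDE12, a phosphodiesterase that degrades oligoadenylates, differed by 0.31 and 0.59 in HCT116 and by 0.04 and 1.77 in HL60. In SNU398 PDE12 differed by -0.06 and 0.27. ABCE1, an ATPase of ribosome recycling, differed by 0.47 and 0.35 in HCT116, but by -0.17 and 0.29 in HL60 and by -0.24 and 0.18 in SNU398. Among ABCE1, PDE12 and AKAP7, 0 were called in any of the 3 lines in the fits to the pairs of the line. Their medians were 0.41 in HCT116, 0.06 in HL60 and 0.00 in SNU398, beside 0.03, 0.02 and -0.00 for all genes.

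Upstream of the synthetases, 4 of 13 listed interferon ligand genes had a row, and none of these 4 was called where it was measured. IFNB1, the only type I interferon gene among these 4, was at most 7.62 in HL60 and 7.52 in SNU398. IL29, a type III interferon gene, was the 1 ligand gene of the list measured in both pairs of HCT116, at 6.71 to 8.35, with differences of -0.07 and 0.29. Of 9 receptor and kinase genes, 2 were called higher in SNU398, the receptor chain IL10RB by 0.34 ± 0.08 (SE, n = 2 pairs, adjusted p = 0.0307 in limma) and the kinase TYK2 by 0.34 ± 0.08, and 0 were called in HCT116 (5 measured) or HL60 (9 measured). The share of all SNU398 genes called higher in that fit was 2.43%. Neither IL10RB nor TYK2 was called over all pairs or in the unpaired fit (adjusted p = 1.00 in limma for each).

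Some STAT and IRF factors were called in SNU398, where no OAS-family gene was called. Of 7 listed here, 3 were called higher and 0 lower in the limma fit to the pairs of SNU398: IRF9 by 0.60 ± 0.09 (SE, n = 2 pairs, adjusted p = 0.00089), IRF7 by 0.57 ± 0.09 and STAT2 by 0.34 ± 0.08. Of all SNU398 genes 2.43% were called higher and 1.23% lower in that fit. The list's median there was 0.25 against -0.00 for all genes. In HCT116, where OAS1 and OASL were called, 0 of 6 measured were called. STAT2 differed by 0.01 and 0.08 in HCT116, IRF9 by 0.72 and 0.30 and IRF7 by 1.14 and 0.63. The mean of IRF7 was larger in HCT116 (0.88 ± 0.22 SE) than in SNU398, but its SE was wider there. A call in 1 line and not in another is therefore no test of a difference between lines. In HL60 0 of 7 were called, and IRF7 differed by 0.46 and 0.48 there. None of these was called over all pairs (limma gave an adjusted p of 1.00 for the 3 in SNU398) or in the unpaired fit.

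**Figure D4:**
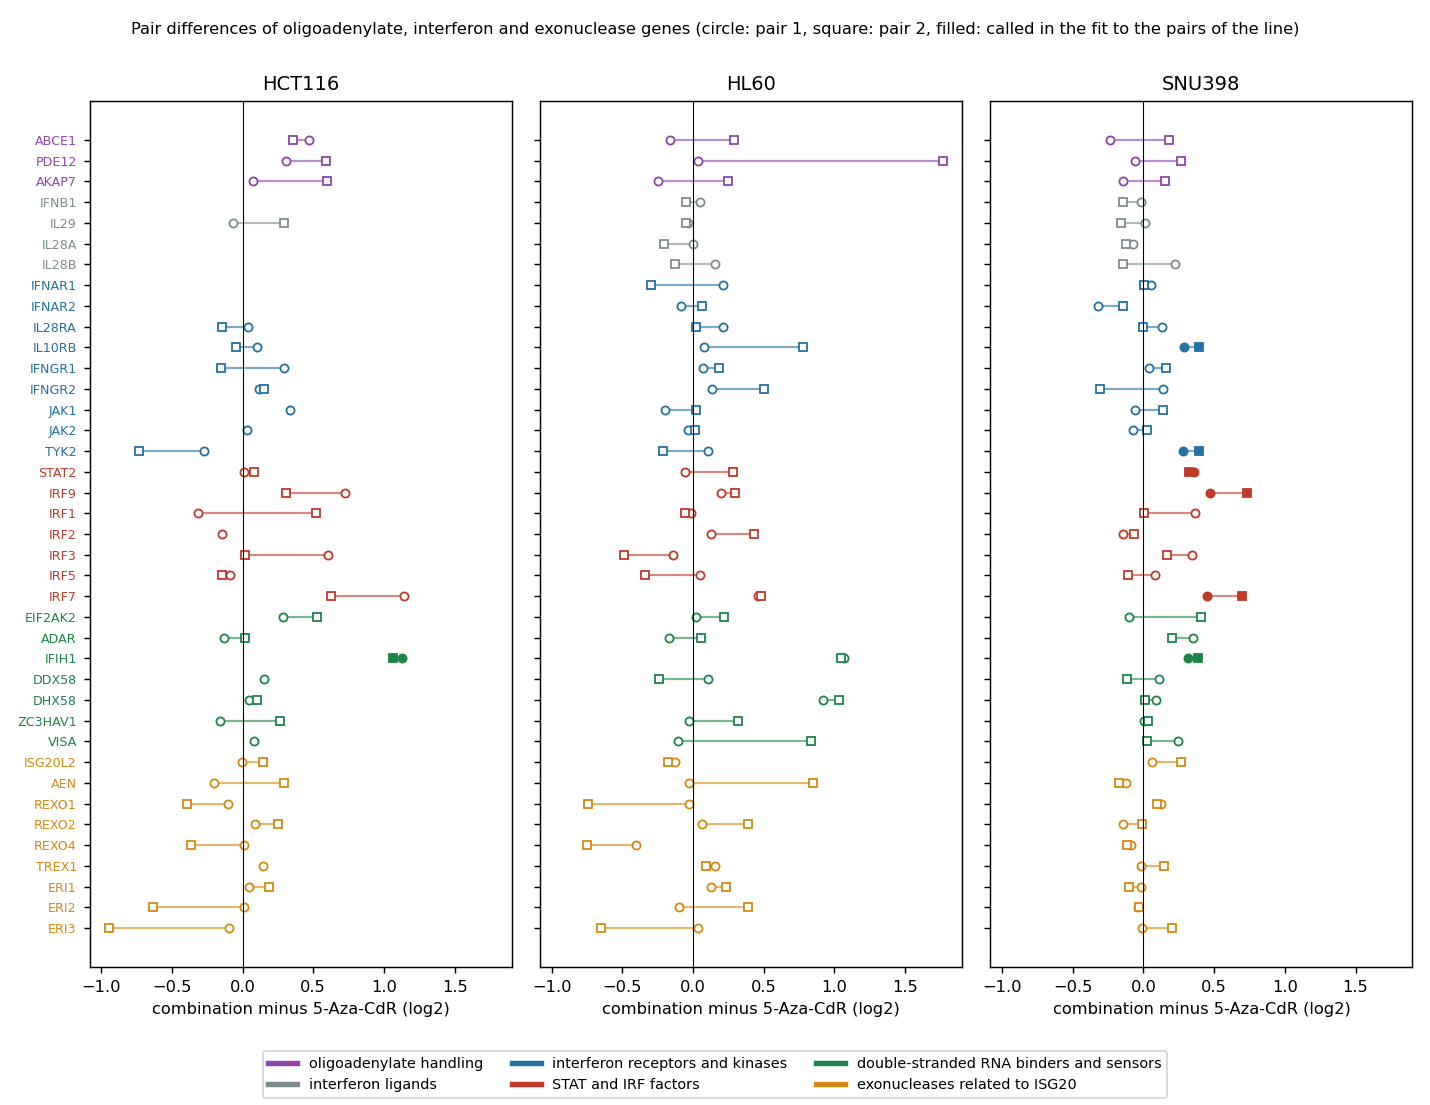
Pair differences (log2, combination minus 5-Aza-CdR) of the listed genes in each line, with pair 1 as a circle and pair 2 as a square, coloured by list, and filled where the gene was called in the fit to the pairs of that line. Filled symbols are IFIH1 in HCT116, none in HL60, and IL10RB, TYK2, STAT2, IRF9, IRF7 and IFIH1 in SNU398.

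Of other genes that bind double-stranded RNA, IFIH1, the sensor MDA5, was called higher in HCT116 by 1.10 ± 0.22 (SE, n = 2 pairs, adjusted p = 0.0113 in limma) and in SNU398 by 0.35 ± 0.08 (adjusted p = 0.0268). These calls were made in the fits to the pairs of the line. Over all pairs the limma adjusted p was 0.102 in HCT116 and 1.00 in SNU398, in the unpaired fit it was 1.00 in both, and after quantile normalization the fit to the pairs of HCT116 called 0 genes. In HL60 its values were 8.88 and 9.95 in pair 1 and 7.63 and 8.68 in pair 2, differences of 1.07 and 1.05 that were not called. IFIH1 was thus at least 0.31 higher in every pair of every line, which held for none of the 4 OAS-family genes. That was not particular to IFIH1: IRF7 was at least 0.45 higher in every pair. IRF9 and ISG20 were also higher in every pair, with smallest differences of 0.20 and 0.13, and so was OAS1, with a smallest difference of only 0.01. The share of all genes that were higher in every pair of every line was not counted. Of the genes of this list, 1 of 5 was called in HCT116, 0 of 7 in HL60 and 1 of 7 in SNU398, where the shares of all genes called higher were 0.170%, 0% and 2.43%.

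Of 9 exonucleases related to ISG20 with a row, 0 were called in any line in the fits to the pairs of the line, as ISG20 itself was not, and a difference between them and ISG20 was not tested. Their medians were 0.12 in HL60, -0.06 in HCT116 and -0.04 in SNU398. REXO4 differed by -0.41 and -0.75 in HL60, REXO1 by -0.03 and -0.74 there, and ERI3 by -0.10 and -0.95 in HCT116.

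The genes closest to the members in pattern were looked up among the 12349 measured on every array, as a description. By Pearson correlation of the level over the 12 arrays, which share line and replicate shifts, OASL was the gene most like OAS1 (r = 0.957), followed by CYP24A1 (0.953) and LOC644100 (0.934). For OASL the closest were LGALS3BP (0.963), OAS1 and then LOC644350. OAS3 was closest to FER1L3 (0.991) and MYOF (0.990), 2 symbols of the same gene, and ZBED2 (0.989), OAS2 to KRT7 (0.980), LOC728285 (0.978) and LAMB3 (0.975), and ISG20 to IER3 (0.947), S100A10 (0.934) and GAL (0.931). Over the 6 pair differences, which leave the line and replicate levels out, the smallest Euclidean distances were those of SAMD9, TAPBP and ISOC1 to OAS1 (0.593, 0.703 and 0.704) and of TAPBP, IFI6 and CYP24A1 to OASL (0.233, 0.373 and 0.426). OAS1 and OASL were 0.720 apart on that measure, OAS2 and OAS3 0.295 apart, and OAS1 and OAS3, direct neighbours in the genome, 1.89 apart. ISG20 was closest to IFIT3 (0.546), RIPK2 (0.582) and SERPINB2 (0.592), and IFIT3 differed by 0.58 and 0.96 in HCT116, by 0.89 and 0.98 in HL60 and by 0.00 and -0.09 in SNU398. OAS2 was closest to FLJ37078 (0.0932), GRSF1 and PPY, and OAS3 to TNFRSF18 (0.127), UBE2L6 and PEF1.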

How the data were processed

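Total RNA of 12 samples was measured on Illumina bead arrays, per the labels' protocols. The values analysed are the deposited log2 expression table, with 1 value per gene symbol, read as log2 from its range; the submitters' processing notes name limma, with background correction, normalization, array design and the choice among the 1 to 4 probes per member not given in the sources used here. Values of exactly 0 were taken as not measured. The 44 columns of the deposited bead-level table name no sample and were not used, so its planned background correction was not run. Its deposited symbol column served only to count probes.

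limma 3.58.1 in R 4.3.3 was fitted to all genes (lmFit, eBayes; Benjamini-Hochberg, threshold 0.05, two-sided) in 3 ways: 6 group means over 12 arrays without pairing, the 6 pair differences (replicate block), and the 2 pair differences of 1 line. A gene was tested where every array of the groups compared had a value. The replicate numbers pair the arrays, because deviations from the group means correlated by 0.907 in HCT116, 0.883 in HL60 and 0.841 in SNU398. With 2 arrays per group, their number limits the precision. Scripts were tested on simulated data. Named were all 5 members, the 3 genes most like each by 2 measures, and list genes called or, where a list had none, up to 3 of smallest p in the mean of the lines. IFNB1 and the line markers were added outside this rule. Values of IRF7, IRF9 and STAT2 in other lines are those of genes called in SNU398. Of 73 list genes 59 matched a row through current or older symbols. Some genes of the pathway are not reported here. Members and lists were chosen with earlier results of these data known.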

Additional observations from a re-analysis of the deposited data

Results flagged for a closer look

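The sign of the OASL pair differences was not the same in all lines, but OASL was not called in HL60 or SNU398. OASL was higher with the combination in both HCT116 pairs (1.04 and 1.13), as were 30.0% of genes. It was lower in both HL60 pairs (-0.05 and -0.34), as were 23.8%, a difference of 1.29 between these line means. In SNU398 OASL was higher in both pairs (0.01 and 0.09), as were 29.6%, so that HL60 minus SNU398 was -0.25. In limma's fit to all pairs the first difference had a 95% interval of 0.86 to 1.71 and an adjusted p of 0.774 over all genes, and the second an interval of -0.67 to 0.18 and an adjusted p of 0.826. OASL lay between 7.54 and 7.89 on all HL60 and SNU398 arrays.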

How the results depend on the processing

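Without the replicate block limma called 0 genes for the combination in each line, on average and between lines, under quantile normalization, centred arrays, zeros kept as values, a mean log2 of at least 9, features measured on all arrays, and a trend with robust variance. The replicate block over all pairs called 1 gene on average. In the pairs of 1 line it called 25 genes in HCT116 and 710 in SNU398. With settings chosen after seeing the data these became 0 and 419 after quantile normalization, 28 and 738 with centred arrays, and 2 and 482 at a mean log2 of at least 9, a filter that leaves out all 5 members. These counts are not shares, because the number of genes tested changed as well. It was 12349 in HCT116 and 19402 in SNU398 at first. Quantile normalization covered only the 12349 genes measured on all arrays, and the filter left 6542 genes in HCT116. In the HCT116 pairs OAS1 and OASL were also called with centred arrays (adjusted p = 0.000361 and 0.00674 in limma). For HL60 minus SNU398 the 2757 calls were 4478 with centred arrays, 1422 with zeros kept, 1196 with the filter, 1537 with features on all arrays and 920 with the replicate block as a random effect, and 1517 to 3832 with 1 array left out. Of these settings, the filter tested 6972 genes and features on all arrays 12349, against 19402 in the others. Quantile normalization turned OAS1 in HL60 to -0.0018, paired or not, and OAS3 in HL60 minus SNU398 to 0.15. Leaving out 1 array sets replicates of unequal signal against each other: OAS1 ran from 0.15 to 2.58 in HCT116 (lowest without the combination replicate 1 array, highest without combination replicate 2) and -0.045 to 0.18 in HL60, OASL from 0.32 to 1.86 in HCT116 and -0.016 to 0.11 in SNU398, and ISG20 from 0.61 to 1.47 in HL60 and 0.13 to 1.16 in HCT116. The averages over the lines ran from 0.075 to 0.89 for OAS1 and 0.058 to 0.57 for OASL. OAS2 ran from -0.33 to 0.40 in HCT116, -0.16 to 0.082 in HL60, -0.062 to 0.018 in SNU398 and -0.13 to 0.11 on average. OAS3 ran from -1.17 to 1.38 in HCT116, -0.15 to 0.040 in HL60, -0.38 to 0.47 on average and -0.083 to 0.011 for HL60 minus SNU398. The cause of these changes was not tested. No detection p bounds the low OAS levels. The planned background correction of the bead-level table was not run.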
